A study of Mus musculus with 23 samples.

Results

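Hox genes encode homeodomain transcription factors and lie in 4 clusters, Hoxa to Hoxd, in which the position of a gene follows where along the body axis it is used. Genes of the low paralog groups, at the 3′ end of a cluster, are used from the hindbrain backwards, and genes of the high groups, at the 5′ end, are used in the trunk and tail. The embryonic forebrain and midbrain lie in front of all Hox domains. In a whole brain the brainstem is therefore the region best known for Hox transcripts. Which part of the adult brain gave the signals here was not measured. The gene set described here holds every probe whose gene name on the array was Hox followed by a, b, c or d and a number, which gave 39 genes read by 44 probes, of 31829 gene names and 39429 probes in all. Members were selected on the gene name alone, but the group was chosen by values already seen, namely the normalised levels and the detection flags by position in a cluster. Both are therefore given below as a description, with no test.

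The brains came from adult male C57BL/6J mice, 19 weeks of age, that had developed in ICR recipient mothers on 1 of 3 diets. The control diet (CD) held 20% casein and 0.02% folic acid, the protein-restricted diet (PR) held 5% casein and 0.02% folic acid, and the third diet (FA) was PR with folic acid raised to 0.1%. In all groups the embryos were made by in vitro fertilisation from C57BL/6J parents on a normal diet, the diets began a month before embryo transfer, the neonates were delivered by caesarean section and fostered by ICR females, and all offspring ate CD after weaning. The methods give CD to the foster mothers, while a figure legend names all 3 diets for them. RNA of whole brains, cerebrum and cerebellum included, was read on 12 one-colour Agilent arrays, 4 per diet, named here CD 1 to CD 4, PR 1 to PR 4 and FA 1 to FA 4. The labels do not say whether brains of a group shared a mother or litter, and a smaller brainstem share of the tissue cannot be told apart from less RNA per cell.

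Detection reached genes of the 3′ and middle parts of the clusters more often than those of the 5′ part. It depends on the probe as well as on the transcript. A probe was counted as measured on an array where at least 50% of its spots carried the scanner's flag for a signal well above background. By that rule 16 of the 39 genes were measured on all 12 arrays, 14 on 1 to 11 arrays and 9 on none. Of the Hox probes 38.6% were measured on all 12 arrays, against 60.2% of all probes. All 16 belonged to paralog groups 1 to 8, which hold 23 genes, and none of the 16 genes of groups 9 to 13 was measured on all 12 arrays. In groups 4 and 5 all 7 genes (Hoxa4, Hoxb4, Hoxc4, Hoxd4, Hoxa5, Hoxb5 and Hoxc5) were measured throughout. In groups 1 to 3 it was 4 of 8 genes, and in groups 6 to 8 it was 5 of 8. In Hoxb the unbroken run went from Hoxb2 to Hoxb8, in Hoxc from Hoxc4 to Hoxc6, and in Hoxd it was Hoxd4 alone, with Hoxd3 on 10 arrays. In Hoxa, Hoxa3, Hoxa4, Hoxa5 and Hoxa7 were measured on 12 arrays, Hoxa2 and Hoxa6 on 10, and Hoxa9 on 11. Hoxb1, used in a single hindbrain segment of the embryo, was measured on 0 arrays, as were Hoxa10, Hoxa11, Hoxb13, Hoxc8, Hoxc13, Hoxd9, Hoxd12 and Hoxd13.

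**Figure D1:**
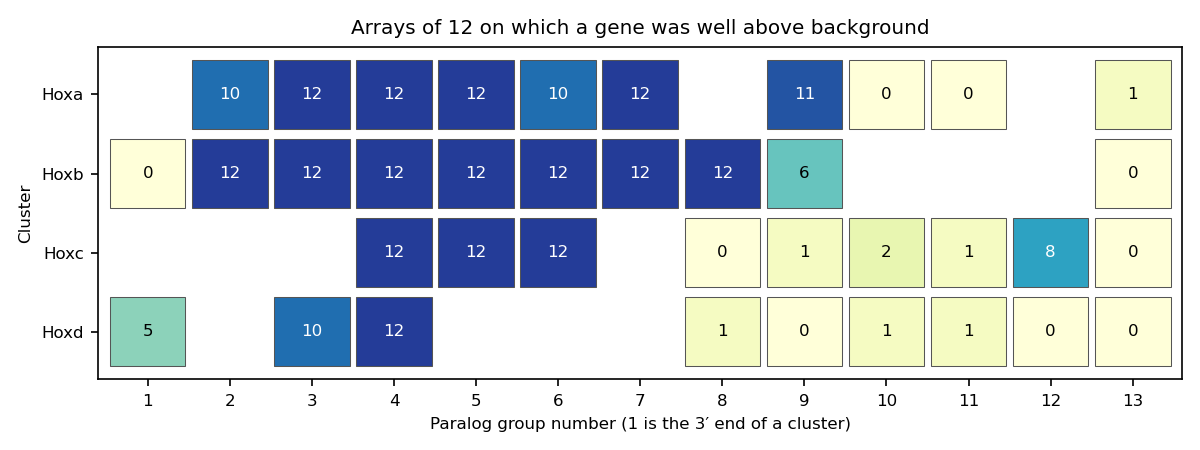
Number of the 12 arrays (printed and by colour, darker for more) on which a Hox gene was well above background, by cluster (vertical axis) and paralog group number (horizontal axis), with the best probe shown for a gene with several and blanks where the mouse has no gene or where a gene is not reported here. The 7 genes of groups 4 and 5 all stand at 12, and none of the 16 genes of groups 9 to 13 does.

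The probes lay on chromosome 6 for Hoxa, chromosome 11 for Hoxb (mm9 positions 96057854 to 96228510), chromosome 15 for Hoxc (102759058 to 102867272) and chromosome 2 for Hoxd (74509248 to 74603059). The upstream sequences of genes on either side of the edge of detection are printed to show what the edge crosses. RefSeq's promoter table held 22 of the 39 genes, and 6 are given as the 250 bases before the start, 5′ to 3′ on the strand of the gene, with each CpG in capitals. Hoxa7 was measured on 12 arrays, Hoxa9 on 11 and Hoxa10 on 0 (the listed start nearer to Hoxa9 is used), Hoxb8 is the last gene of its cluster on 12 arrays, and Hoxd4 (12 arrays) and Hoxd8 (1 array) bracket the edge in Hoxd.
Hoxa7 (GRCm38.p6, chr6:52218574-52218823, minus strand): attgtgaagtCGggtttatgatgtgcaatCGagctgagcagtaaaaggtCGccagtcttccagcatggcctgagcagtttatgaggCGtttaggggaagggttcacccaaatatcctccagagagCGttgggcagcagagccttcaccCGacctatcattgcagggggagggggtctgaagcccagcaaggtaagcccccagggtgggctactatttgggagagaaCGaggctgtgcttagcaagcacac
Hoxa9 (GRCm38.p6, chr6:52227371-52227620, minus strand): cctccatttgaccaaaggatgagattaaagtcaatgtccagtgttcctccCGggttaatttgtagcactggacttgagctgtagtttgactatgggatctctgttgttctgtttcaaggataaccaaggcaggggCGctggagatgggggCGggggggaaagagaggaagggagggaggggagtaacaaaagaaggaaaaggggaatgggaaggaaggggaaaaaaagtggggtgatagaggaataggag
Hoxa10 (GRCm38.p6, chr6:52234940-52235189, minus strand): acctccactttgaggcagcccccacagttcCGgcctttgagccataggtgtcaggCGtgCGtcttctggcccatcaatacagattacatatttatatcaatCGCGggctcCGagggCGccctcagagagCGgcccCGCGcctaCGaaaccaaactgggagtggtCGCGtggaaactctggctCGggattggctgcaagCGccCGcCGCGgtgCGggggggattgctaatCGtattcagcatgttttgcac
Hoxb8 (GRCm38.p6, chr11:96281655-96281904, plus strand): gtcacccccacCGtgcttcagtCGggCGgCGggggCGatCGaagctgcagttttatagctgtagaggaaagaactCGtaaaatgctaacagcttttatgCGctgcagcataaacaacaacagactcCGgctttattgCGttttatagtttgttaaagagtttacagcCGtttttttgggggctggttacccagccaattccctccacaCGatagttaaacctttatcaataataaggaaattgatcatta
Hoxd4 (GRCm38.p6, chr2:74721728-74721977, plus strand): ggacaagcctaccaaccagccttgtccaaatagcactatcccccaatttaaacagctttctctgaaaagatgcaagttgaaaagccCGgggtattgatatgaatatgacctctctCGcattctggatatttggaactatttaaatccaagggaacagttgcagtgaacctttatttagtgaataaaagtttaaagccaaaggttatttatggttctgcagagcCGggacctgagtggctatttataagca
Hoxd8 (GRCm38.p6, chr2:74704365-74704614, plus strand): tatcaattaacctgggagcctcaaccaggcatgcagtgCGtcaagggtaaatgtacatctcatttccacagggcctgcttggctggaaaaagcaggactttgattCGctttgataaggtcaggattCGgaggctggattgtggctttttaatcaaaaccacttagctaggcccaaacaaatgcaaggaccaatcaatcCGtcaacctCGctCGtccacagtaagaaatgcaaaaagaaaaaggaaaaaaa

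These windows held 7 CpGs in Hoxa7, 3 in Hoxa9, 20 in Hoxa10, 12 in Hoxb8, 3 in Hoxd4 and 6 in Hoxd8. The 7 listed starts of genes measured on 12 arrays held 3 to 28 CpGs with a median of 12. The other 17 held 2 to 35 with a median of 13, and include Hoxa9 (11 arrays) and Hoxa2, Hoxa6 and Hoxd3 (10 each). Whether CpG number goes with detection was not tested. Over all 32851 listed mouse promoters the median was 6. Across the 24 listed Hox starts (Hoxa10 and Hoxd11 have 2 each), the letters TATAAA on either strand stood in 4, against 12.4% of all promoters, among them Hoxb8 and Hoxd4. The letters TGATNNAT, a sequence bound by Hox proteins together with Pbx partners, stood on either strand before Hoxa2, Hoxb1, Hoxb8 and at 1 start of Hoxd11, 4 of 24 starts, against 7.68% of all promoters. A match describes these letters only.

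The arrays themselves differed between the diets. Each diet filled a slide of its own, scanned on its own, which leaves slide effects and diet effects inseparable throughout: the 2 cannot be told apart. CD arrays had 27068 to 28458 spots well above background, PR arrays 31266 to 33478 and FA arrays 30408 to 31672, and the mean background-subtracted signal of negative control probes was 28.1 to 34.8 in CD, 42.7 to 51.2 in PR and 39.3 to 47.6 in FA. Of the 44 Hox probes, 19 to 21 were measured on a CD array, 25 or 26 on a PR array and 22 to 25 on an FA array. The lowest log2 normalised signal with the flag was 4.75 to 5.27 on CD arrays, 3.22 to 3.82 on PR arrays and 3.70 to 4.00 on FA arrays. A signal under 4.75 was thus never counted as measured in CD, while it could be in PR or FA. For probes measured in PR and FA but not in CD, this difference between slides moves with the result, and its part was not tested. Probe levels below are log2 of the normalised signal and are compared between arrays for 1 probe at a time, never between probes, because probes differ in how brightly they bind.

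Paralog groups 1 to 3 set up hindbrain segments and the motor nuclei of the cranial nerves. Hoxa2, which gives the second hindbrain-derived arch its identity, gave log2 signals of 5.26, 5.52, 5.07 and 5.13 in CD, 5.76, 5.63, 5.78 and 5.76 in PR, and 5.41, 5.23, 5.71 and 5.31 in FA. It was measured on 2 CD arrays, 4 PR arrays and 4 FA arrays, and every PR value lay above every CD value, as on 14.5% of all probes. Hoxb2, a regulator of facial motor neurons, gave 7.71, 7.45, 7.63 and 7.65 in CD, 7.38, 7.84, 8.15 and 7.44 in PR, and 7.82, 6.90, 7.80 and 7.78 in FA. FA 2 stood lowest of the 12 and PR 3 highest.

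Hoxa3, needed for the glossopharyngeal nerve and the throat glands, gave 7.53, 7.10, 7.14 and 7.27 in CD, 7.08, 7.49, 7.62 and 7.22 in PR, and 7.53, 6.86, 7.37 and 7.46 in FA, and the 3 groups overlapped. Hoxb3 had 2 probes on all 12 arrays, 1888 bases apart. The first gave 5.93, 6.12, 6.24 and 6.25 in CD, 6.02, 6.17, 6.40 and 6.05 in PR, and 6.36, 5.78, 6.09 and 6.15 in FA. The second gave 6.53, 6.15, 6.70 and 6.65 in CD, 6.08, 7.00, 7.19 and 6.43 in PR, and 6.96, 5.92, 6.64 and 6.73 in FA. On both, FA 2 was the lowest and PR 3 the highest array. Hoxd3 was measured on 2 CD arrays and on all PR and FA arrays, at 5.61, 5.33, 5.28 and 5.62 in CD, 5.47, 6.00, 6.23 and 5.56 in PR, and 5.82, 4.63, 6.04 and 5.80 in FA. Hoxd1 was measured on 0 CD, 2 PR and 3 FA arrays and lay between 3.54 and 5.08.

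Groups 4 and 5 act in the hindmost hindbrain and the neck part of the spinal cord. Hoxa4 gave 4.81, 6.10, 5.78 and 5.48 in CD, 5.47, 5.69, 6.08 and 5.77 in PR, and 5.82, 5.34, 5.90 and 5.64 in FA, and its widest spread was within CD. Hoxb4, also a regulator of blood stem cells, gave 7.91, 7.87, 7.99 and 7.77 in CD, 7.64, 8.09, 8.36 and 7.80 in PR, and 7.98, 7.03, 7.99 and 8.04 in FA. Hoxc4 gave 9.06, 9.03, 8.95 and 8.95 in CD, 8.57, 8.97, 9.16 and 8.80 in PR, and 8.93, 7.94, 8.95 and 8.80 in FA. In these, CD arrays lay close together for Hoxb4 and Hoxc4 while FA 2 stood well under the other FA arrays. Hoxd4 gave 6.64, 6.30, 6.44 and 6.66 in CD, 6.67, 6.90, 7.29 and 6.53 in PR, and 7.18, 5.79, 7.04 and 6.84 in FA, again with FA 2 lowest and PR 3 highest. Hoxa5, which in the neck region patterns breathing motor neurons and cervical vertebrae, gave 7.16, 7.15, 7.31 and 7.29 in CD, 6.84, 7.35, 7.75 and 7.07 in PR, and 7.49, 6.86, 7.36 and 7.39 in FA. Hoxb5 gave 9.47, 9.47, 9.47 and 9.51 in CD, 9.39, 9.52, 10.02 and 9.31 in PR, and 9.68, 8.70, 9.54 and 9.49 in FA, so that the 4 CD arrays spanned 9.47 to 9.51 and the FA arrays 8.70 to 9.68. Hoxc5, which acts with Hoxa5 in phrenic motor neurons, gave 6.32, 6.44, 6.22 and 5.80 in CD, 6.00, 6.47, 7.06 and 6.11 in PR, and 6.59, 5.51, 6.40 and 6.51 in FA.

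Groups 6 to 8 are used in the spinal cord at the level of the forelimb and chest. Hoxb6 gave 8.74, 8.46, 8.26 and 8.37 in CD, 8.32, 8.37, 9.09 and 8.15 in PR, and 8.10, 7.78, 8.48 and 8.60 in FA. Hoxc6, a marker of limb-innervating motor neurons, gave 6.06, 5.64, 6.03 and 6.01 in CD, 5.33, 8.17, 7.31 and 5.85 in PR, and 6.35, 5.18, 6.57 and 6.40 in FA. PR 2 and PR 3 stood far above the remaining arrays, which overlapped. Hoxa7 gave 6.06, 5.88, 6.09 and 6.24 in CD, 5.43, 5.67, 6.97 and 5.48 in PR, and 5.77, 4.85, 6.04 and 6.20 in FA. Hoxb7 gave 6.98, 6.52, 6.93 and 6.90 in CD, 6.65, 6.86, 8.08 and 6.60 in PR, and 7.19, 6.13, 7.28 and 7.49 in FA. In both group 7 genes PR 3 was the highest and FA 2 the lowest of the 12 arrays. Hoxb8, known outside the spinal cord for its use in microglia and for the grooming disorder of its mutants, gave 8.68, 8.52, 8.50 and 8.51 in CD, 7.80, 7.78, 7.90 and 5.99 in PR, and 7.08, 6.29, 8.13 and 7.79 in FA. All 8 PR and FA arrays lay under all 4 CD arrays, and PR 4 and FA 2 were lowest. Hoxa6 was measured on 2 CD arrays and on all others, between 4.48 and 5.29, and its groups overlapped.

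Groups 9 to 13 pattern the lower spinal cord, limbs and urogenital tract. Hoxa9 had 2 probes 1430 bases apart. The first was measured on 11 arrays (3 CD, 4 PR, 4 FA) at 5.30, 4.85, 5.58 and 6.30 in CD, 5.88, 6.05, 6.17 and 6.13 in PR, and 5.91, 5.32, 5.78 and 5.82 in FA. The second was measured on 0 CD, 4 PR and 2 FA arrays at 3.85, 4.48, 2.10 and 3.75 in CD, 6.18, 4.09, 6.60 and 4.15 in PR, and 4.25, 3.61, 3.81 and 3.49 in FA, with PR 1 and PR 3 well above the other arrays. CD and PR means were 3.54 and 5.26, and the difference did not pass (limma adjusted p = 0.070). No fold is given, since none of the CD signals carried the flag. PR 2 (4.09) and PR 4 (4.15) lay under CD 2 (4.48). The limma adjusted p of this probe was 0.040 without PR 2, 0.048 without PR 4 and 0.018 under scaling to the 75th percentile. All of these are against CD signals at background. The first probe passed at 0.81 without CD 4 (limma adjusted p = 0.0096). Hoxb9 was measured on 0 CD, 3 PR and 3 FA arrays at 3.84, 2.47, 4.00 and 4.52 in CD, 3.99, 3.41, 4.39 and 3.64 in PR, and 4.86, 4.68, 4.15 and 3.82 in FA.

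Detection of the other high-group genes differed from array to array. Hoxc12 was measured on 1 CD, 4 PR and 3 FA arrays at 4.57, 6.14, 3.97 and 4.71 in CD, 4.15, 4.34, 4.65 and 4.81 in PR, and 4.20, 4.21, 4.19 and 4.22 in FA, with CD 2 the highest of the 12. Hoxc10 was measured on 2 PR arrays, at 2.27, 3.93, 2.35 and 2.36 in CD, 2.25, 6.74, 2.27 and 4.33 in PR, and 2.28, 2.28, 2.27 and 2.90 in FA, and PR 2 stood alone at 6.74. Hoxc9 was measured on PR 1 alone, at 4.83, against 2.32 to 2.65 elsewhere. Hoxd11 had a first probe on 0 arrays and a second on PR 1 alone, at 4.35, although CD 2 read 4.26 there without the flag. Hoxd10 was measured on 1 PR array (PR 4, at 3.54), with CD 1 at 3.55 unflagged, and Hoxd8, of group 8, on PR 3 at 4.76. Hoxa13, the most 5′ gene of its cluster, had a first probe on 0 arrays and a second on FA 4 alone, at 4.07, with CD 3 at 4.09 unflagged. Hoxc11 carried the flag on CD 3 alone, where its spot was an outlier and its value was left out, so CD enters its fit with 3 arrays.

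**Figure D2:**
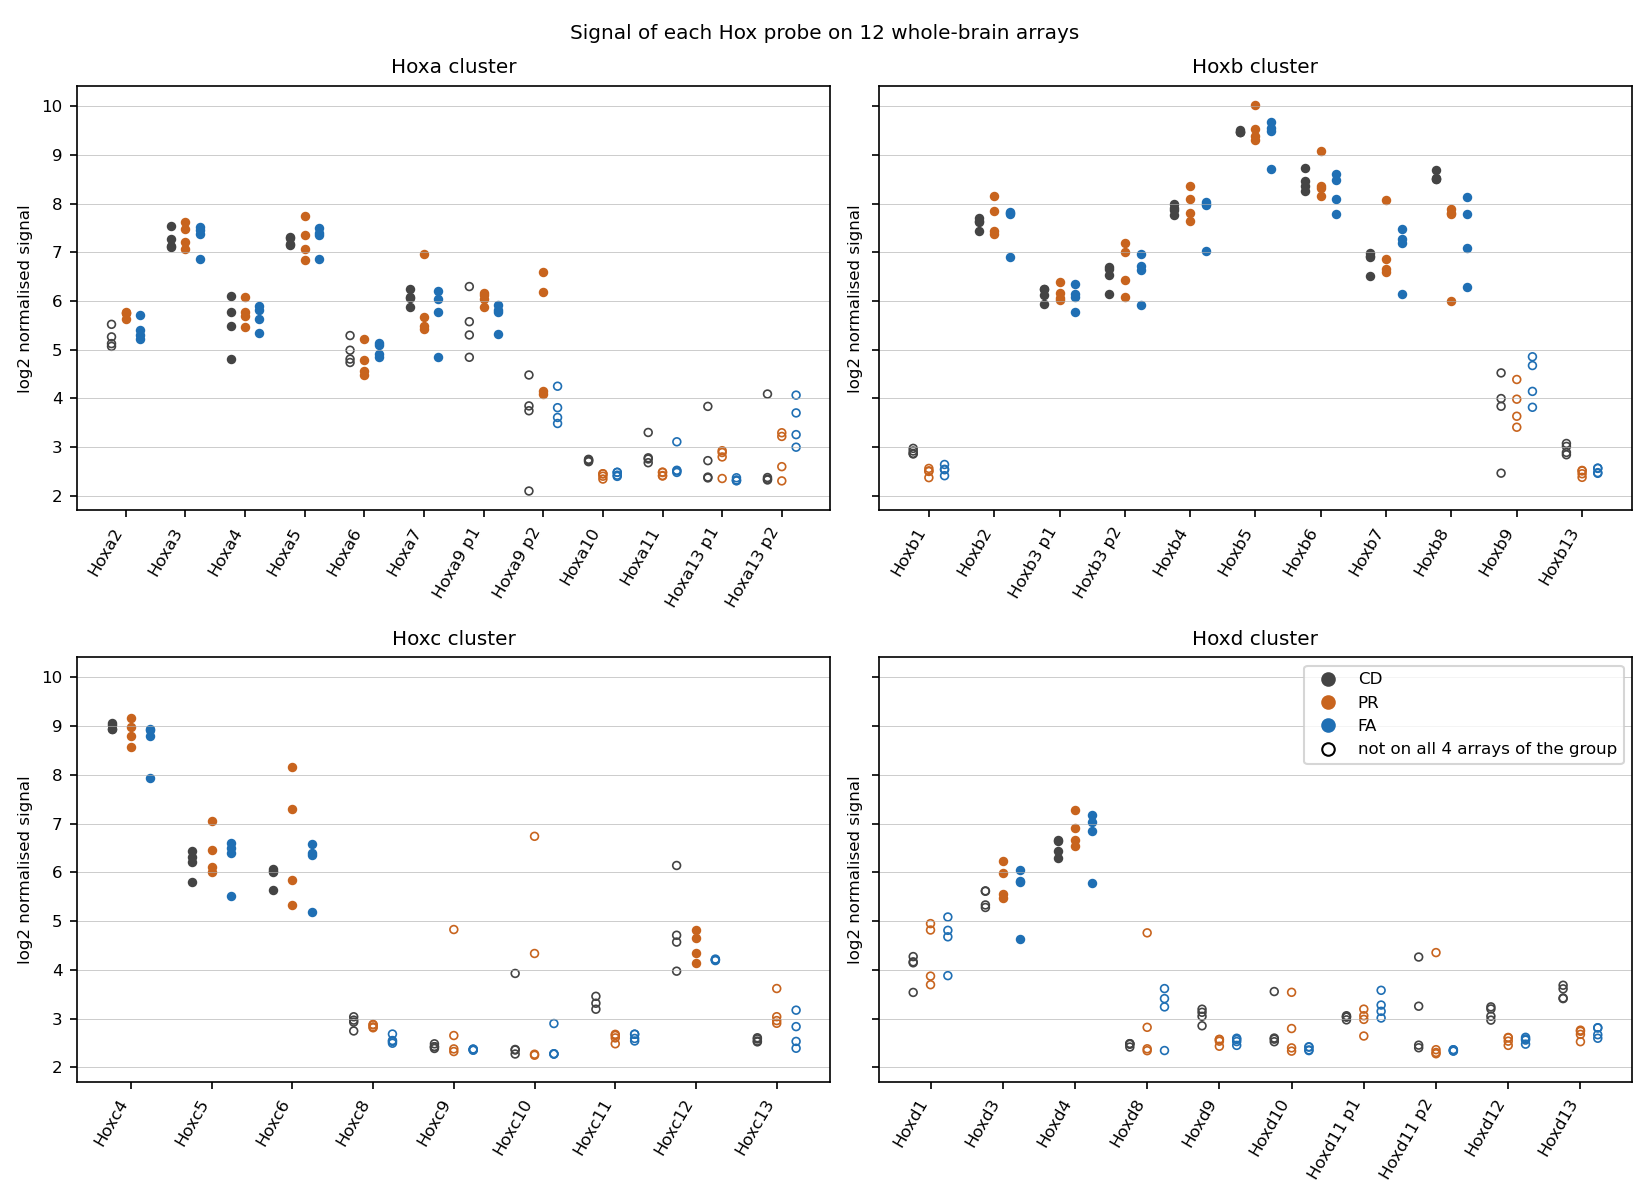
Log2 normalised signal (vertical axis) of each Hox probe reported here on the 12 arrays, by cluster and in gene order, each point an array coloured by diet (p1 and p2 are probes of 1 gene) and filled where all 4 arrays of the diet were well above background. Filled points in all 3 diets mark the probes measured on all 12 arrays, and on Hoxb8 all PR and FA points lie under the 4 CD points.

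Between the diets, no Hox gene measured on all 12 arrays passed the test, while 30.9% of all probes measured that widely passed in PR against CD and 37.3% in FA against CD. The comparisons ask whether the mother's diet went with a lasting difference in the offspring's brain. In PR against CD, limma's moderated test with Benjamini-Hochberg adjustment over all 39429 probes called 9 of 44 Hox probes at an adjusted p under 0.05, against 30.2% of all probes, 7 lower and 2 higher (backgrounds 16.4% and 13.8%). In FA against CD it called 8, all lower, against 34.7% of all probes (18.2% lower, 16.5% higher). Of the called probes of the whole array 45.6% were higher in PR, and 56.7% under normexp background correction. In FA against PR it called 0, against 0.621% of all probes, and 0 by Tukey's test, while 3 stood at an unadjusted limma p under 0.05, as 14.1% of all probes did. Under the study's limits of at least 2-fold and an adjusted p under 0.0001, 0 Hox probes were called in any comparison, where 0.0254% of all probes were lower and 0.0685% higher in PR against CD, 0.0609% lower and 0.139% higher in FA against CD, and 0 probes either way in FA against PR.

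The called probes were at background. Of the 9 in PR against CD, 7 were well above background on 0 arrays (Hoxa10, Hoxb1, Hoxb13, Hoxc13, Hoxd9, Hoxd12 and Hoxd13), and Hoxc11 carried the flag on CD 3 alone. In FA against CD, 7 of the 8 were on 0 arrays (the same list with Hoxc8 in place of Hoxc13) and the remaining one was Hoxc11. No fold is given for these, since the signals of both groups are bounds. Hoxc13, higher in PR (limma adjusted p = 0.041), kept its call without PR 3, FA 1, FA 2 or FA 4 and lost it without any of the other 8 arrays. Hoxb1 and Hoxc11 lost their calls in both comparisons with the deposited values. The values of these background probes stand beside a negative control signal that differs between the slides, and its part was not tested. With normexp background correction in place of the scanner's, Hoxb8 was called lower and Hoxa2 higher in PR against CD, and Hoxb8 and Hoxa13 probe 1 lower in FA against CD.

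Hoxa2 was the exception. It was 0.49 ± 0.12 (log2 difference ± SE, n = 4 and 4) higher in PR than in CD, with an adjusted p of 0.011 from limma. Group means were 5.25 ± 0.20 in CD, 5.73 ± 0.07 in PR and 5.41 ± 0.21 in FA (SD). In FA against CD its difference was 0.17 ± 0.12 with an adjusted p of 0.30. The PR difference passed the test under the other scalings and tests run, with probes dim in all groups removed, and without each array in turn, with limma adjusted p between 0.0022 and 0.033 and 0.042 by Tukey's test. Its size depended on the background correction, at 0.21 under normexp, and was 0.68 under scaling to the 75th percentile. A filter asking for the flag on all 8 arrays of the comparison left it out. Because 2 of 4 CD arrays lacked the flag, the CD mean rests in part on signals at the edge of detection.

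Hoxb8 differed most among the 17 probes measured throughout. Its mean was 8.56 ± 0.09 in CD, 7.37 ± 0.92 in PR and 7.32 ± 0.82 in FA (SD, n = 4 each). The log2 difference was -1.19 ± 0.47 in PR (95% interval -2.23 to -0.15, limma adjusted p = 0.081) and -1.23 ± 0.47 in FA (-2.27 to -0.19, limma adjusted p = 0.065), so neither passed. All PR and all FA values lay under all CD values, a separation that 18.9% of all probes showed in that direction for PR and 20% for FA. PR and FA are both set against the same CD arrays. Normexp background correction brought both under the threshold, at -0.76 (limma adjusted p = 0.038) and -0.79 (limma adjusted p = 0.026). Without PR 4, at 5.99 the lowest array, the PR difference was -0.73 with an adjusted p of 0.17 from limma, and fitting without it gave the unchanged FA difference an adjusted p of 0.018. Without FA 3 the FA difference was -1.50 (limma adjusted p = 0.042), and without FA 2, the lowest FA array, it was -0.89 (limma adjusted p = 0.16).

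The other 16 probes gave log2 differences of -0.18 to 0.73 in PR against CD (smallest limma adjusted p 0.35) and of -0.35 to 0.20 in FA against CD (0.24). With Hoxb8 included, 13 of the 17 were higher and 4 lower in PR, with a median of 0.09, and 9 were higher and 8 lower in FA, with a median of 0.04. Over all probes measured on all 12 arrays the medians were -0.002 in PR and 0.006 in FA, and over all probes of the array -0.01 in each comparison. Under normexp correction the FA median of the 17 turned to -0.02. The widest intervals belonged to Hoxc6, -0.51 to 1.97 in PR and -1.05 to 1.43 in FA. The narrowest were those of Hoxb3 probe 1, -0.26 to 0.31 and -0.32 to 0.24. With 4 arrays a group, differences inside those intervals remain compatible with the data. With PR 3 and FA 2 both left out, a choice made after their Hox values were seen, Hoxa7 passed in PR at -0.54 (limma adjusted p = 0.014), and Hoxb7 and Hoxd4 passed in FA at 0.49 (0.021) and 0.51 (0.018).

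**Figure D3:**
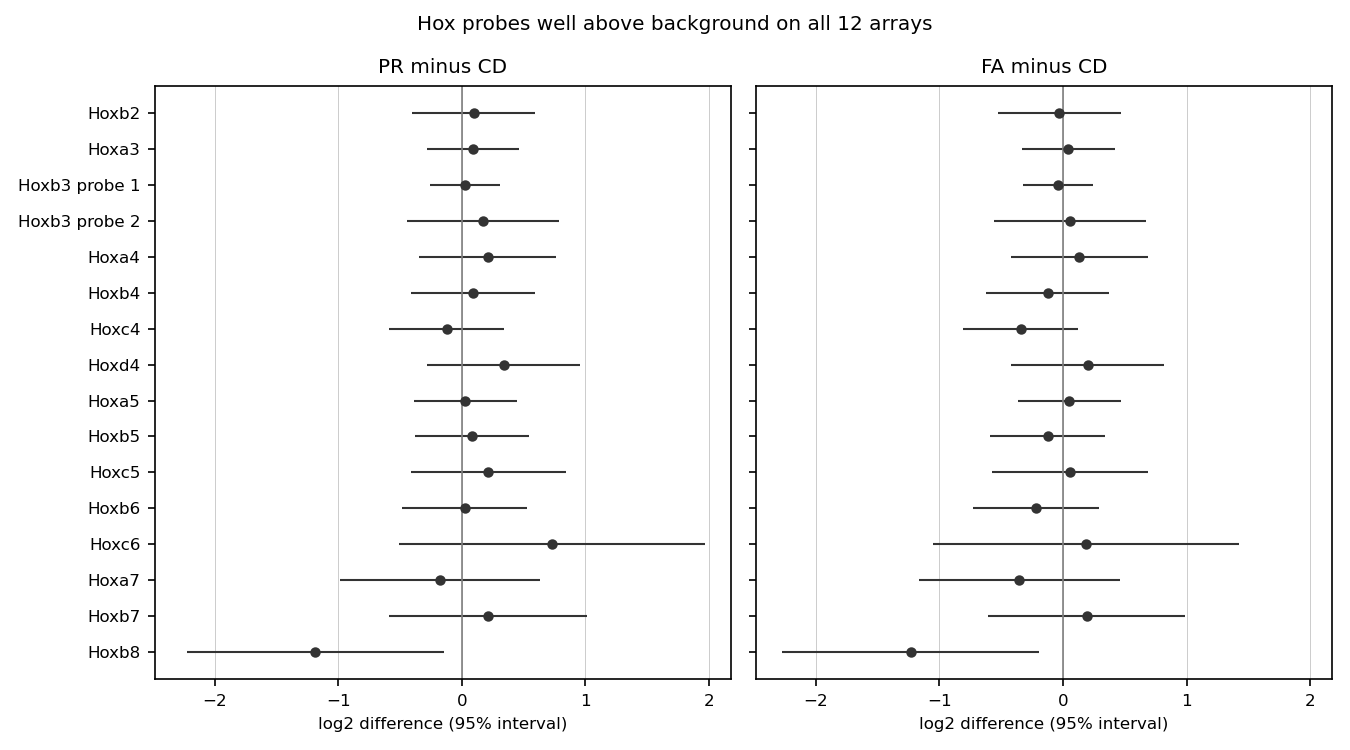
Log2 difference from CD (horizontal axis, dots, with 95% intervals from limma) of the Hox probes measured on all 12 arrays and reported here, in order of paralog group (vertical axis), for PR (left) and FA (right). The intervals of all probes shown but Hoxb8 hold 0 in both panels, and those of Hoxb8 run from -2.23 to -0.15 and from -2.27 to -0.19.

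The spread within a diet was wide for Hox probes. The pooled SD within groups had a median of 0.34 over the 17 probes and of 0.10 over the 23753 probes measured on all 12 arrays. It was unequal between diets, with a median of 0.17 in CD, 0.36 in PR and 0.45 in FA for the Hox probes and of 0.10, 0.09 and 0.08 for all such probes. In PR and in FA each of the 17 exceeded the median of all such probes. The median standard error of a Hox difference was 0.23, against 0.07.

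The Hox probes moved together from brain to brain. FA 2 was the lowest FA array on 17 of 17 probes, by a mean of -0.66 (log2) from the group mean, with single probes from -1.03 to -0.31. PR 3 was the highest PR array on 16 of 17, by a mean of 0.51 with single probes from 0.22 to 1.09, and Hoxc6 was the exception. PR 1 was the lowest PR array on 12 and PR 4 on the other 5, with means of -0.33 and -0.32. The 4 CD arrays had means of 0.03, -0.06, 0.05 and -0.01. Among the other probes measured throughout, FA 2 was the lowest FA array on 29.2% and PR 3 the highest PR array on 22.5%, and the median deviation of such probes was 0.00 on both arrays.

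The deviations differed along the clusters, and not in 1 way on every array. On PR 3 the mean was 0.34 over groups 1 to 3 (5 probes), 0.44 over groups 4 and 5 (7 probes) and 0.78 over groups 6 to 8 (5 probes). On FA 2 the same means were -0.50, -0.64 and -0.84. On PR 4 they were -0.17, -0.18 and -0.68, the last with Hoxb8 at -1.38, and on PR 1 they were -0.32, -0.30 and -0.38. FA 1 went from 0.26 and 0.28 to 0.01, PR 2 from 0.15 and 0.05 to 0.28, FA 3 from 0.14 and 0.21 to 0.42 and FA 4 from 0.10 and 0.15 to 0.41. Each probe was also set against the mean of the other 16. Pearson's r over the 12 arrays, after the group means were removed, ran from 0.37 (Hoxa4) to 0.98 (Hoxb2) with a median of 0.89, and without FA 2 the median was 0.81. These arrays share the slides and the normalisation, and the values describe them only.

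**Figure D4:**
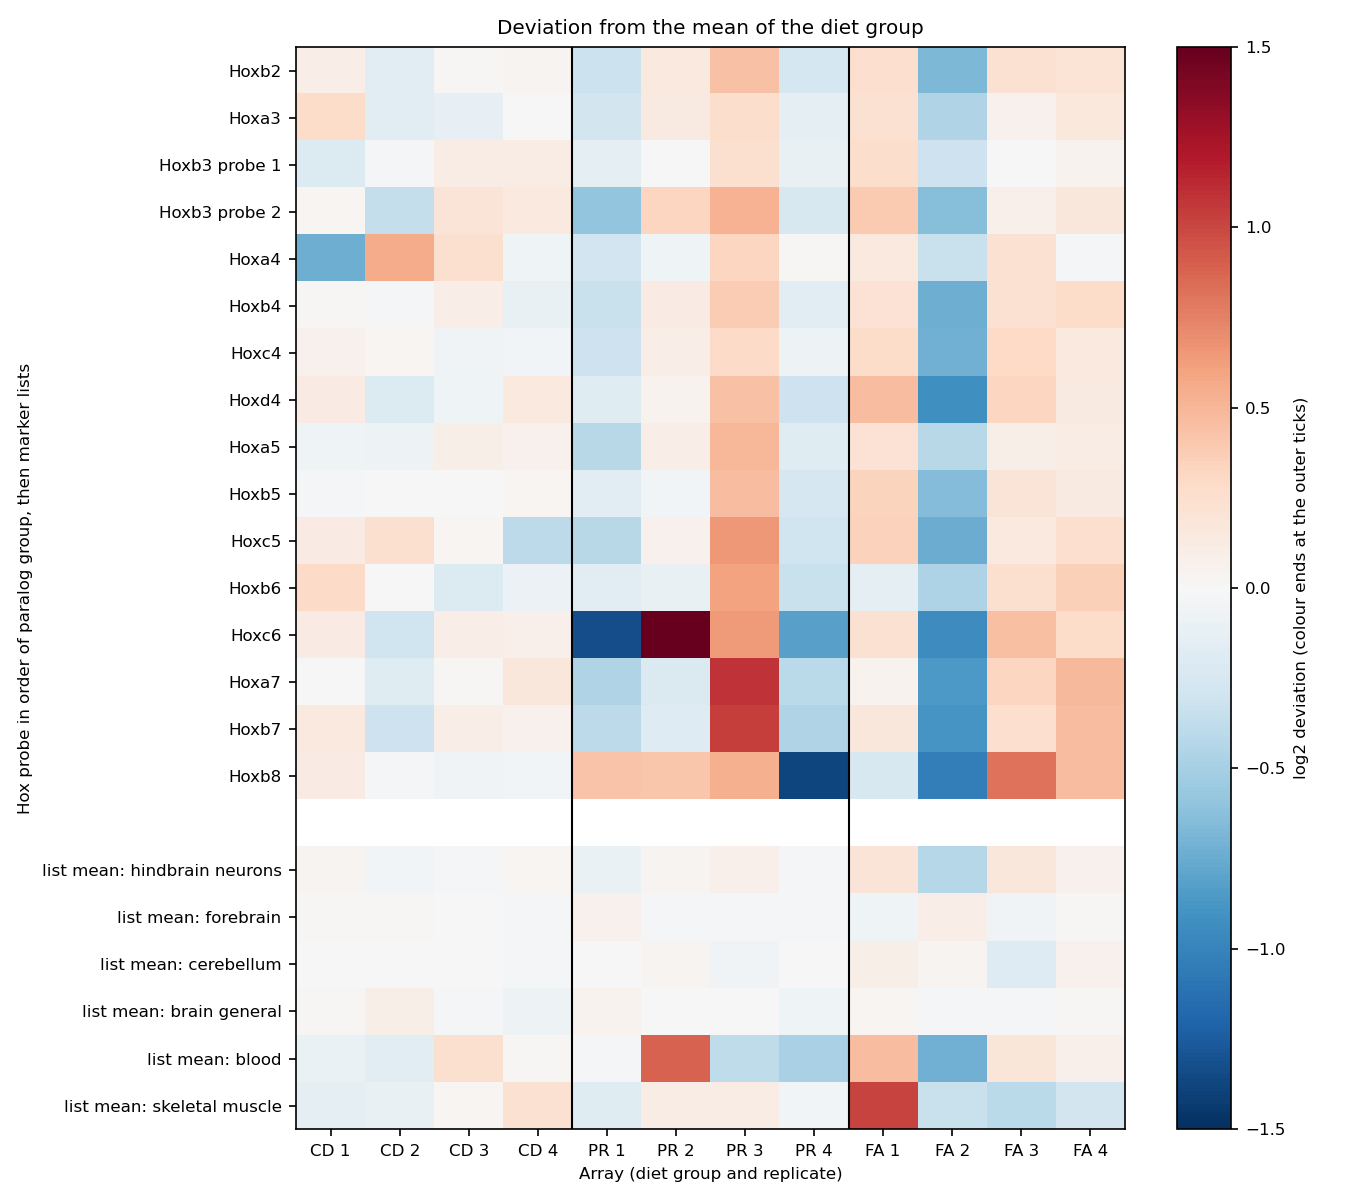
Log2 deviation of each array (horizontal axis) from the mean of its diet group, by colour from blue (below) to red (above), for the Hox probes measured on all 12 arrays and reported here, in order of paralog group, and, under the gap, for the mean of 6 marker lists. FA 2 is below and PR 3 above its group mean on every Hox probe shown, and the hindbrain neuron list is at -0.43 on FA 2 while the forebrain list is at 0.09. The blood and muscle lists are at -0.73 and -0.33 on FA 2.

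Marker genes of other brain parts were set beside this. A list of hindbrain neuron genes (16 of 18 genes on the array, 17 of 19 probes on all 12 arrays and none on 0) had a mean deviation of -0.43 on FA 2, which was lowest on 12 of its 17 probes, and of 0.08 on PR 3. Without Tph2 and Slc6a4 the FA 2 value was -0.19 over 15 probes. The summed signal of that list was 5584 to 5842 in CD, 5469 to 6363 in PR and 4400 to 5821 in FA, with FA 2 the lowest and PR 3 the highest of the 12. The list also held Chat, Slc18a3 and Slc5a7, genes of acetylcholine neurons, which are not confined to the hindbrain. A sum gives bright probes the most weight, so it is no measure of hindbrain share. Tph2, the brain's serotonin-making enzyme, read 4.50 on FA 2 and 7.14 to 8.04 on the other FA arrays, and Slc6a4, the serotonin transporter, read 5.16 and 7.48 to 8.14. Fev, a regulator of serotonin neurons, read 6.08 on FA 2 and 6.43 to 6.67 on the other FA arrays. Other genes of the list went the other way. Dbh (9.70), Slc6a2 (7.59) and Phox2a (6.61) each read higher on FA 2 than on any other FA array. The forebrain list deviated by 0.09 on FA 2 and -0.02 on PR 3, the cerebellum list by 0.04 and -0.05, and the general brain list by -0.02 and 0.00. The blood list, of haemoglobin and other blood cell genes, was at -0.73 on FA 2 and -0.38 on PR 3. FA 2 was the lowest FA array on 8 of its 8 probes. On FA 2 and PR 3 the pituitary list (3 probes) was at -0.34 and -0.12. The muscle list (4 probes) was at -0.33 and 0.11, and the meninges list (10 probes) at -0.12 and 0.01. How much hindbrain tissue each sample held, and its part in the Hox values, was not tested. The general brain genes were on all 12 arrays with 21 of 21 probes.

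Among 23703 other probes measured on all 12 arrays with no missing value, 5 followed the mean deviation of the 17 Hox probes most closely by Pearson's r over the 12 arrays with group means removed. They were Tmem63a (r = 0.93), a mechanosensitive channel, Atpgd1 (0.92), the enzyme that makes carnosine, LOC677366 (0.92), Ghsr (0.92), the ghrelin receptor, and Nkx6-1 (0.91), a homeodomain factor of ventral hindbrain and spinal neurons. Without FA 2 these were 0.86, 0.85, 0.82, 0.81 and 0.81. Ghsr read 4.83 on FA 2 and 6.19 on PR 3, its lowest and highest values, and Nkx6-1 read 7.17 and 8.51, likewise. Between the outermost Hox probes of the clusters lay 17 further probes of other names, 5 of them measured on all 12 arrays and 9 on none. AI448005 (mm9 chr2:74569698-74569757, in Hoxd between the Hoxd4 and Hoxd3 probes), named after its values were seen, ranked 10 at r = 0.90, and read 7.83 on FA 2, its lowest, and 9.03 on PR 3. Hoxa11as, the antisense transcript at Hoxa11, was measured on all 12 arrays while Hoxa11 was on 0, and differed by -0.24 (log2) in PR against CD (limma adjusted p = 0.038). Evx1, the homeobox gene beside Hoxa13, was on 12 arrays and Evx2, beside Hoxd13, on 1.

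Genes known to act on or with Hox genes were read from lists. Of the Hox cofactors (Pbx, Meis and their kin, 9 genes, 15 probes), 1 probe was lower and 0 higher in PR against CD, and 2 lower and 1 higher in FA against CD. A probe of Meis3 rose by 0.33 ± 0.12 in FA (log2 ± SE, limma adjusted p = 0.048, and 0.077 with the replicate number as a block). The list of retinoic acid genes and Cdx transcription factors, which act on Hox genes in the embryo, held 18 genes and 23 probes. Of these probes, 5 were lower and 1 higher in PR, and 4 lower and 2 higher in FA. Rarb, a retinoic acid receptor, rose by 0.41 ± 0.04 in PR and 0.37 ± 0.04 in FA (limma adjusted p = 0.00010 and 0.00016), and Aldh1a2, which makes retinoic acid, fell by 0.21 ± 0.05 and 0.38 ± 0.05 (limma adjusted p = 0.0094 and 0.00026). Crabp2, which carries retinoic acid inside cells, fell as well, by 0.23 in PR and by 0.36 in FA, though it lost a call under normexp correction.

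Of the Polycomb list, whose complexes keep unused Hox genes silent (23 genes, 35 probes), 5 probes were lower and 6 higher in PR, and 4 lower and 4 higher in FA. Jarid2 fell by 0.42 ± 0.07 in PR and 0.44 ± 0.07 in FA (limma adjusted p = 0.0020 and 0.0013), and Rbbp7 rose by 0.50 ± 0.11 and 0.64 ± 0.11 (limma adjusted p = 0.0063 and 0.0014). Of the Trithorax and H3K27 demethylase list, which keep used Hox genes active (12 genes, 18 probes), 8 probes were lower and 1 higher in PR, and 6 lower and 1 higher in FA, with medians of -0.11 and -0.13. A probe of Mll1, the methyltransferase that maintains Hox expression, fell by 0.64 ± 0.10 in PR and 0.88 ± 0.10 in FA (limma adjusted p = 0.00081 and 0.00012). Psip1, which tethers Mll1 to chromatin, fell by 0.37 ± 0.05 and 0.42 ± 0.05 (limma adjusted p = 0.00049 and 0.00019), and Kdm6b fell by 0.27 and 0.37. The directions of the probes named as called in these 4 lists held under each scaling tried. These counts stand beside 16.4% of all probes lower and 13.8% higher in PR, and 18.2% and 16.5% in FA, and beside medians of -0.01 over all probes. In the list of hindbrain segment regulators (9 genes, 11 probes), 1 probe was lower and 2 higher in PR and 2 lower in FA, and in that of genes flanking the clusters (17 of 18 genes, 30 probes), 3 were lower and 3 higher in PR and 4 and 4 in FA.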

How the data were processed

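Signals were measured on Agilent 4x44K arrays (Cy3) of 12 brains, 4 per diet, grouped by the labels. The deposited intensity values per spot, background-subtracted by Feature Extraction 11.0.1.1 (mm9 annotation), were used, and 0 spots were saturated. The deposited table is the authors' qspline-normalised form of them, as intensities, and was taken to log2 here. Here the spots of a probe were averaged after qspline on all arrays, rewritten in R 4.3.3, without outlier spots (77 missing values). These values differed from the log2 of the deposited table by at most 0.0167 for Hox values well above background and by up to 2.29 over all Hox values. All 3 groups were fitted together with limma 3.58.1 and Benjamini-Hochberg adjustment over 39429 probes, after a run on simulated data. Members and lists were chosen with earlier results of these data known. Named were all Hox probes that were called, measured on all 12 arrays or in groups 9 to 13 on any, up to 4 probes per list by smallest adjusted p, and the 5 most alike probes. The lists were of cofactors, retinoic acid and Cdx, Polycomb, Trithorax, segment regulators, flanking genes, hindbrain neurons, forebrain, cerebellum, general brain, blood, muscle, meninges and pituitary. Depth does not apply to arrays, and the number of arrays limits the precision. The p-values weigh a difference between diets against the spread of arrays within a diet, which holds no spread between slides. The DNA methylation samples were not analysed here. Some genes are counted in totals but not reported here by name.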

Additional observations from a re-analysis of the deposited data

Results flagged for a closer look

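Within a diet group of 4, an array was marked where its gap to the nearest of the others exceeded Dixon's 95% limit as a share of the group's range. The 17 Hox probes on all arrays and Hoxa2 gave 54 groups, of which 10 were marked. Chance marks about 1 in 20. FA 2 was low on Hoxb2 (6.90, the others 7.78 to 7.82), Hoxb4 (7.03, others 7.98 to 8.04), Hoxc4 (7.94, others 8.80 to 8.95) and Hoxc6 (5.18, others 6.35 to 6.57). PR 3 was high on Hoxa7 (6.97, others 5.43 to 5.67), and PR 4 low on Hoxb8 (5.99, others 7.78 to 7.90). PR 2 was low on Hoxa2 (5.63, others 5.76 to 5.78). In CD, where the ranges were small, CD 4 was high on Hoxb5 (9.51, others 9.47), CD 1 high on Hoxb8 (8.68, others 8.50 to 8.52) and CD 2 low on Hoxc6 (5.64, others 6.01 to 6.06).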

How the results depend on the processing

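Counts of called Hox probes depended on the treatment of background. In PR against CD, 7 were lower and 2 higher. Normexp correction gave 1 and 1, removing probes dim in every group 0 and 1, and asking for the flag on all arrays of both groups (chosen after seeing the data) 0 and 0. In FA against CD, 8 were lower and 0 higher, and those settings gave 2, 0 and 0 lower. The deposited values gave 5 lower in PR and 6 in FA, and 75th percentile scaling 9 and 11. Tukey's test and the replicate block each gave 1 higher in PR. Leaving out 1 array gave 7 to 8 lower and 1 to 2 higher in PR, 8 to 9 lower and 0 to 1 higher in FA, and 0 to 0 in FA against PR. Without PR 3 and FA 2 together, chosen after their Hox values were seen, 3 were higher in FA (Hoxb7, Hoxd4 and Hoxd8) and Hoxa7 was lower in PR at -0.54. Hoxb8 in FA passed at -1.23 when only CD and FA were fitted (limma adjusted p = 0.040) and without PR 4 or FA 3. The causes were not tested. Hox probes on all 12 arrays numbered 17 to 21 under the other definitions. No Hoxa2 or Hoxb8 difference reversed. Under 75th percentile scaling the hindbrain neuron list had 1 probe lower and 2 higher in PR and a median of 0.02 in FA (-0.09 with qspline), and the Polycomb list 6 lower and 4 higher in PR. Same-numbered arrays correlated by -0.06 to 0.21, and the best array of another number by -0.02 to 0.18. These values overlap and do not decide whether the replicate numbers pair the samples. The number is also the position on the slide, and the negative control signal rose with it in each diet. With the number as a block the calls of Hoxc13 and Meis3 were lost. The other calls named in the report were kept, except that Mylpf and a second Lmx1b probe were not checked in this way. Signals near background limit what can be said of groups 9 to 13.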

Other observations

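Calls in the other marker lists are counted over all probes of a list, and 16.4% of all probes on the array were lower and 13.8% higher in PR, and 18.2% and 16.5% in FA. Hindbrain neurons (19 probes) had 2 probes lower and 1 higher in PR against CD and 3 lower and 1 higher in FA against CD (limma, adjusted p under 0.05). Lmx1b, a regulator of serotonin neurons, fell by 0.35 ± 0.10 in PR and 0.41 ± 0.10 in FA (log2 ± SE, limma adjusted p = 0.019 and 0.0075) on 1 probe, which lost a call under 75th percentile scaling, while a second Lmx1b probe rose by 0.35 in FA (limma adjusted p = 0.047) and differed by 0.23 in PR (limma adjusted p = 0.19). The forebrain list (24 probes) had 5 lower and 6 higher in PR, and 5 and 6 in FA. The cerebellum list (19 probes) had 4 lower and 2 higher in PR and 7 and 1 in FA, and the general brain list (21 probes) 5 and 6 in PR and 5 and 5 in FA. The meninges list (10 probes) had 2 lower and 1 higher in PR and 2 lower in FA, and the pituitary list (9 probes) 2 lower in each. In the muscle list (10 probes) 1 probe was higher in each, that of Mylpf, which was well above background on 2 arrays. None of the pituitary and muscle calls was on a probe measured on all 12 arrays. The blood list (8 probes) had 0 calls in either. The muscle list stood 1.02 above its group on FA 1, where Myh4, a fast muscle myosin, read 9.27 against 5.52 to 6.01 on the other FA arrays. On FA 1 the mean of the 17 Hox probes was 0.20 above its group.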
